A study of Rattus norvegicus with 8 samples.

Results

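Aminoacyl-tRNA synthetases attach each amino acid to its own transfer RNA (tRNA) at the expense of ATP, and so supply the charged tRNAs that ribosomes use. The members described here are 38 genes: 19 genes of cytosolic enzymes, 16 genes of their mitochondrial counterparts, and 3 genes (Aimp1, Aimp2, Eef1e1) whose products hold a set of cytosolic enzymes together in the multi-synthetase complex. They were chosen by name, through array probes whose accession is a rat RefSeq transcript of one of these genes. No measured value entered that rule, although earlier results of these data were known. A matched probe was found for 35 of the 38 genes (42 probes). The genes without a matched probe were Iars2, Lars2 and Mars2. The Aars2 probe was at background on all 8 arrays, which left 34 genes to test among the 13464 genes tested in all: 19 cytosolic, 12 mitochondrial and 3 scaffold genes.

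The cells were NR8383, a continuous line of rat alveolar macrophages that came from the lung lavage of a normal rat. They were given zinc oxide (ZnO) at 4 µg/mL (called ZnO 4 below) or at 16 µg/mL (ZnO 16) for 4 h, and RNA from 4 cultures per dose, which the series' design calls biological replicates, was hybridised to 8 one-colour Agilent arrays. Passage numbers in the labels are 20 at ZnO 4 and 200 at ZnO 16. Each dose was also on a slide and in a scan of its own, so dose, passage number, slide and scan cannot be told apart in any difference below. Untreated cells were not analysed here, and a value that is higher at ZnO 16 is not thereby above the untreated level.

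Cytosolic and mitochondrial synthetases are encoded in the nucleus, mostly by separate genes, and the mitochondrial enzymes charge the tRNAs that the mitochondrial genome encodes. When an amino acid runs short, uncharged tRNA activates the kinase GCN2 (gene Eif2ak4), which phosphorylates the translation factor eIF2α (gene Eif2s1) and thereby raises translation of the transcription factor ATF4. ATF4 and the C/EBP-type proteins that it pairs with bind short elements near many genes of amino acid supply, including those of several cytosolic synthetases. Alveolar macrophages take up inhaled particles, and zinc oxide particles release zinc ions in the acidic compartments that receive them.

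Levels are given as log2 of the processed signal minus the array's own 75th percentile of signal, so that 0 is the 75th percentile and each unit is a doubling. Such a level belongs to its probe, and levels of different probes are not compared. A difference is ZnO 16 minus ZnO 4 on this log2 scale, and a gene was called higher or lower where the adjusted p from limma, over all 13464 genes, was under 0.05. In bulk RNA of a culture, fewer cells that carry a transcript and less of it per cell cannot be told apart. The replicate arrays correlated at 0.973 to 0.991 within ZnO 4 and at 0.969 to 0.986 within ZnO 16, over all genes. The arrays of ZnO 16 replicates 2 and 3 had the lowest 75th percentiles of signal (151 and 190, against 313 to 516 on the other arrays), and on ZnO 4 replicate 4 an area of low signal covered 5.35% of the spots. Of 15 macrophage markers 13 were measured well enough to test, with Spi1 called higher and Cd68 and Itgam lower. None of 12 lung epithelium markers passed the filter on dim probes, and 1 of 6 fibroblast, 1 of 6 lymphocyte and 3 of 4 endothelial markers did. Of the last 3 genes Pecam1 and Vwf were lower at ZnO 16.

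Across the 34 tested genes 10 were higher at ZnO 16 and 4 were lower, and 20 did not pass the test. Of the 4 lower genes, Nars1 and Yars2 passed the filter on dim probes only through ZnO 4, the dose where they were higher. Among all genes the share called was 41.7%, with 19.8% higher and 21.9% lower. The members' share called was 41.2%, close to that background, with 29.4% higher and 11.8% lower. Their median difference was 0.23, and that of all genes tested was 0.01. Among the 7980 tested genes with a symbol, as every member has, 23.5% were higher and 16.8% lower, with a median of 0.08. The values of 13 members at one dose lay wholly beyond those at the other, against 40.0% of all genes with 8 values.

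These counts rest on the scaling between arrays. Of all calls 47.6% were higher in the main analysis, 63.3% with the array median as the scale and 58.2% with the normexp background correction. Without scaling, and with scaling to the spike-in controls, the median gene itself was lower at ZnO 16 by 0.75 and 1.07, and the shares of calls that were higher were 4.95% and 2.22%. In those settings none of the 10 higher members was called higher, and all 4 lower members were still called lower. Both settings move genes down as a whole, so the kept calls are no support for the 4 falls. Relative to the median gene of each setting, no called member changed direction in any of the 23 alternatives run. With median scaling, no scaling and spike-in scaling this held by construction, since they shift all genes of an array alike. As fitted with spike-in scaling, Sars1 (0.27) and Cars1 (0.84) stayed higher. There Farsa (-0.27), Qars1 (-0.32), Aimp2 (-0.37), Yars1 (-0.17), Tars2 (-0.20), Farsb (-0.52), Vars1 (-0.23) and Cars2 (-0.50) turned lower. As fitted with normexp, Yars2 was at 0.11.

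**Figure D1:**
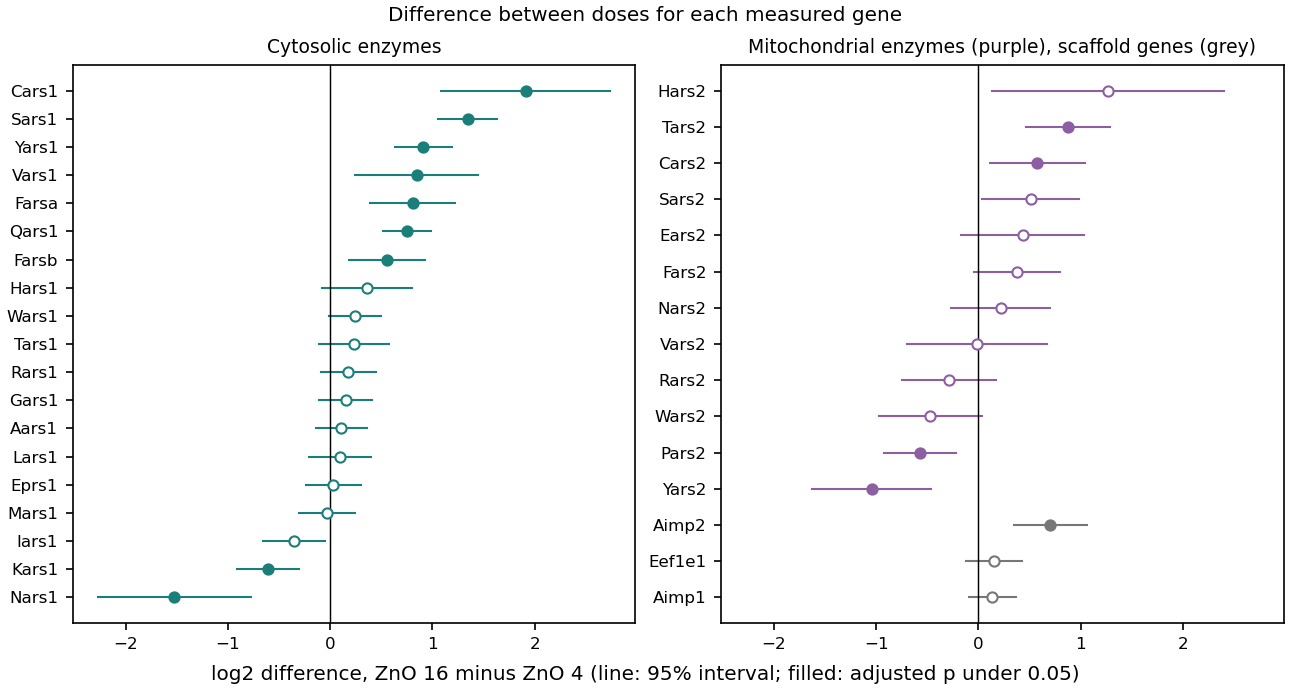
Each row is a gene, and the horizontal axis is the log2 difference, ZnO 16 minus ZnO 4, with a line for its 95% interval. Filled points mark an adjusted p under 0.05; the cytosolic points run from -1.52 (Nars1) to 1.91 (Cars1), and the mitochondrial points from -1.05 (Yars2) to 1.27 (Hars2, whose adjusted p was 0.069).

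Cytosolic synthetases went both ways, with more rises than falls. Of the 19 enzymes, 7 rose (Cars1, Sars1, Yars1, Vars1, Farsa, Qars1, Farsb), 2 fell (Nars1, Kars1) and 10 did not pass the test. Gars1 and Kars1 each serve both compartments and are counted as cytosolic throughout. The share higher was 36.8% and the share lower was 10.5%. Differences ran from -1.52 to 1.91 with a median of 0.24, and 15 of the 19 were above 0.

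Sars1, the cytosolic seryl-tRNA synthetase, had the smallest adjusted p of all members. Its levels were 0.84, 1.21, 0.86 and 1.18 at ZnO 4 and 2.33, 2.42, 2.23 and 2.50 at ZnO 16. All values at the higher dose lay above all values at the lower dose, with more than 1 log2 unit between the nearest of them. The difference was 1.35 (SE 0.13, a 2.54-fold higher signal, adjusted p = 2.94e-05), and it stayed between 1.28 and 1.41 when each array was left out in turn.

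Cars1, the cysteinyl-tRNA synthetase, had the largest difference. It read -1.99, -2.03, -1.65 and -3.66 at ZnO 4, where 3 of the 4 arrays were well above background, and -0.17, -0.40, -0.62 and -0.49 at ZnO 16. The doses did not overlap, and replicate 4 stood lowest by far at ZnO 4. The difference was 1.91 (SE 0.37, 3.76-fold, adjusted p = 0.00266). That lowest spot lay in the low-signal area of its array, and with such areas left out the difference was 1.47 (adjusted p = 0.000123).

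Yars1, the tyrosyl-tRNA synthetase, read 0.72, 1.10, 0.96 and 1.14 at ZnO 4 and 1.80, 1.84, 1.90 and 2.03 at ZnO 16. The ZnO 16 values were all higher and lay close together. It rose by 0.91 (SE 0.13, 1.88-fold, adjusted p = 0.000341).

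The valyl-tRNA synthetase gene Vars1 read -1.30, -1.21, -1.32 and -0.62 at ZnO 4 and -0.67, 0.36, 0.04 and -0.80 at ZnO 16. The doses overlapped, since ZnO 4 replicate 4 lay above ZnO 16 replicates 1 and 4. The difference was 0.85 (SE 0.27, 1.80-fold, adjusted p = 0.0294), and the call was lost without any of 5 single arrays (ZnO 4 replicates 1, 2 and 3, ZnO 16 replicates 2 and 3), with adjusted p of up to 0.0791. Without both ZnO 16 replicates 2 and 3, the arrays of lowest signal, the difference was 0.38 (adjusted p = 0.212).

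Phenylalanyl-tRNA synthetase is built from the catalytic alpha subunit, encoded by Farsa, and the beta subunit, encoded by Farsb, and both genes rose. Farsa read 3.70, 3.89, 3.70 and 3.96 at ZnO 4 and 4.43, 4.95, 4.96 and 4.14 at ZnO 16, a difference of 0.81 (SE 0.19, 1.75-fold, adjusted p = 0.00667). Farsb read -1.17, -0.85, -0.85 and -0.78 against -0.43, -0.70, -0.24 and -0.06, a difference of 0.56 (SE 0.17, 1.47-fold, adjusted p = 0.0235). Neither gene's doses overlapped. For Farsa the ZnO 16 arrays of lowest signal, replicates 2 and 3, gave the highest values, and without both the difference was 0.47 (adjusted p = 0.0318). Farsb no longer passed when ZnO 4 replicate 1 was left out (0.47, adjusted p = 0.071), nor when ZnO 16 replicate 3 (0.52, adjusted p = 0.0592) or replicate 4 was (0.46, adjusted p = 0.054), nor without the filter on dim probes (adjusted p = 0.0505).

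Nars1, the asparaginyl-tRNA synthetase, went the other way. It read -2.03, -2.12, -1.58 and -3.30 at ZnO 4 and -3.51, -3.90, -3.78 and -3.93 at ZnO 16, where only 2 of the 4 arrays were well above background. The doses did not overlap, although ZnO 4 replicate 4 lay nearest to the ZnO 16 values. The gene fell by 1.52 (SE 0.34, a 2.87-fold lower signal, adjusted p = 0.00528). With another background correction (normexp on the raw signals) the difference was -0.39 relative to all genes, or -0.24 as fitted. The adjusted p of the fitted value was 0.454.

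**Figure D2:**
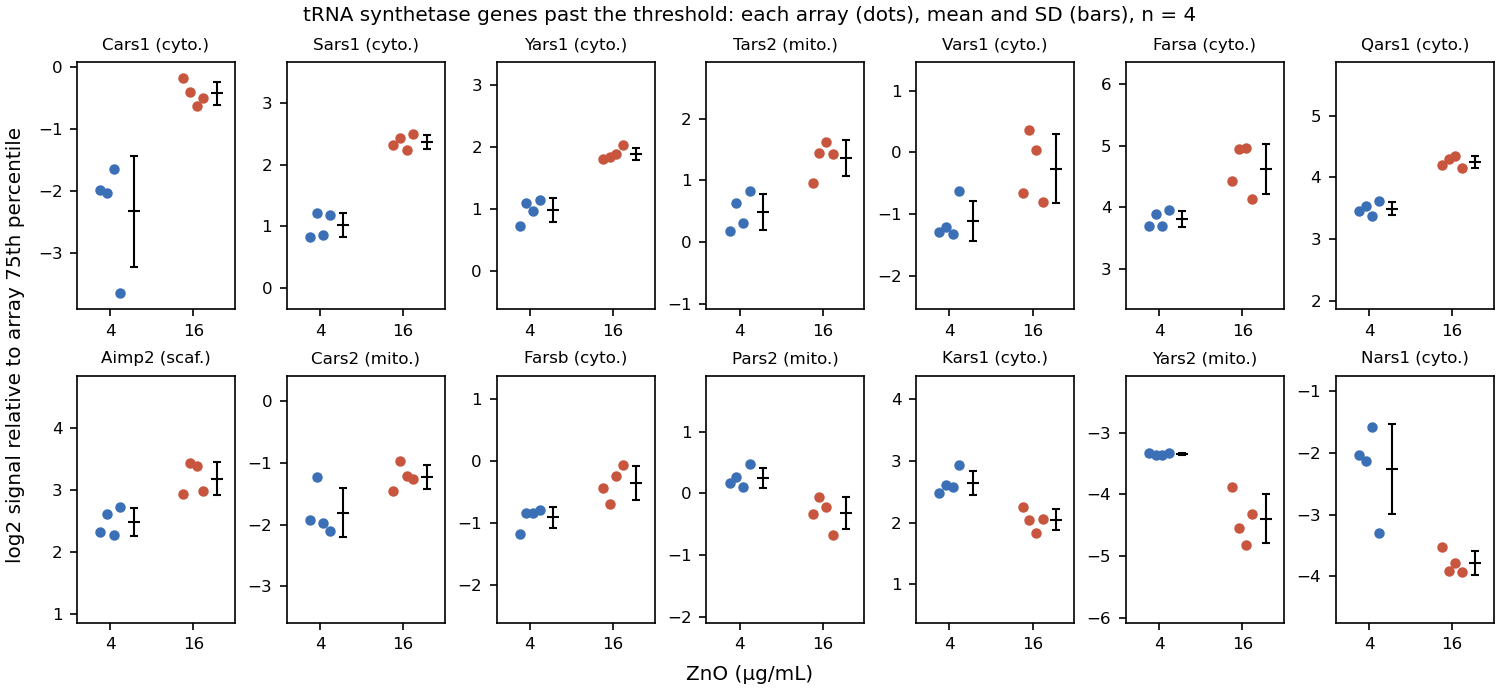
Each panel is a gene called between the doses, with a dot for each array, a bar for the mean and SD (n = 4), the ZnO dose in µg/mL on the horizontal axis and the log2 signal relative to the array's 75th percentile on the vertical axis. All panels span the same height; Sars1, Yars1 and Qars1 show tight, separate doses, Vars1 and Cars2 show overlapping doses, and 1 array at ZnO 4 stands low in Cars1.

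Of the 12 cytosolic enzymes outside the multi-synthetase complex 6 rose and 1 fell, with a median difference of 0.46. That was 58.3% called and 50% higher, against 41.7% and 19.8% of all genes, and no test was made of this small group. The others were Aars1 (0.11), Gars1 (0.15), Hars1 (0.36), Tars1 (0.24) and Wars1 (0.25). Wars1, the tryptophanyl-tRNA synthetase, read 3.15, 3.04, 3.04 and 3.15 at ZnO 4 and 3.47, 3.19, 3.22 and 3.49 at ZnO 16. Its doses did not overlap but the adjusted p was 0.107. A dimmer probe of Wars1 read -1.28, -0.99, -1.31 and -0.73 at ZnO 4 and -0.49, -0.25, -0.46 and -0.26 at ZnO 16, a difference of 0.71 (adjusted p = 0.00587 in a fit of all probes). The probes thus disagreed on the call, and with the mean of the probes in place of the brightest the difference was 0.48 (adjusted p = 0.00896).

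The 7 measured enzymes that sit in the complex (Eprs1, Iars1, Kars1, Lars1, Mars1, Qars1, Rars1) had a median difference of 0.03, with 1 called higher and 1 lower. The share called was 28.6%, against 41.7% of all genes. Qars1, the glutaminyl-tRNA synthetase, read 3.46, 3.53, 3.38 and 3.61 at ZnO 4 and 4.20, 4.29, 4.35 and 4.15 at ZnO 16. The doses were well apart, and the difference was 0.75 (SE 0.11, 1.69-fold, adjusted p = 0.000408). Its probe was spotted 10 times per array, and with the 1 spot that lay in the low-signal area left out the difference was 0.70.

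Kars1, the lysyl-tRNA synthetase, read 2.47, 2.62, 2.58 and 2.93 at ZnO 4 and 2.25, 2.04, 1.83 and 2.06 at ZnO 16. All ZnO 16 values were lower, and the gene fell by 0.60 (SE 0.14, a 1.52-fold lower signal, adjusted p = 0.00576). The call was lost when the array median replaced the 75th percentile as the scale (adjusted p = 0.102). The isoleucyl enzyme Iars1 differed by -0.35 (adjusted p = 0.0601). Its fall was called without ZnO 16 replicate 4 (-0.44, adjusted p = 0.0275) and without both replicates 4 (-0.44, adjusted p = 0.0347). With normexp Iars1 was called at a fitted -0.53 (adjusted p = 0.0148), or -0.68 against the median gene. The bifunctional glutamyl-prolyl enzyme Eprs1 differed by 0.03 (95% interval -0.24 to 0.30), the leucyl enzyme Lars1 by 0.10 (-0.21 to 0.40), the methionyl enzyme Mars1 by -0.03 (-0.30 to 0.24) and the arginyl enzyme Rars1 by 0.18 (-0.09 to 0.45). These intervals leave out differences as large as that of Qars1 in either direction.

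Among the scaffold genes Aimp2 rose, and Aimp1 and Eef1e1 did not pass the test. Aimp2 read 2.32, 2.61, 2.27 and 2.74 at ZnO 4 and 2.94, 3.44, 3.39 and 2.99 at ZnO 16, without overlap. The difference was 0.70 (SE 0.16, 1.63-fold, adjusted p = 0.00618). Aimp1 differed by 0.14 (95% interval -0.10 to 0.37) and Eef1e1 by 0.16 (-0.12 to 0.43).

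Synthetases fall into a pair of structural classes with unrelated catalytic domains, which bears on no rule used above. Of 9 cytosolic class I genes 4 rose and 0 fell, and of 9 class II genes 3 rose and 2 fell. Eprs1 holds a domain of each class and was left out. The shares called were 44.4% and 55.6%, against 41.7% of all genes. The medians were 0.25 and 0.24.

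Promoters were read because several cytosolic synthetase genes are known targets of ATF4. The RefSeq table of assembly GRCr8 gives 300 bases per start site (250 before it and 50 from it on) and had entries for 36 of the 38 genes, without Gars1 and Rars1. The core TGATGNAA of the C/EBP-ATF response element, searched on both strands, was in 3.98% of 33469 promoters and in 2.18% of the 7067 promoters of genes tested here. It was found for 7 of the 17 cytosolic genes (41.2%), for 0 of 16 mitochondrial genes and for 0 of 3 scaffold genes. For each of these genes 1 match is shown with its surroundings, 22 bases each, because among the synthetase and scaffold genes the core was found for cytosolic enzymes only; each is read on the strand on which it spells TGATGNAA, with the core in capitals.
Cars1, chr1:208225335-208225356, plus strand, 18 bases after the start: ttccagaatcTGATGCAAccgc
Yars1, chr5:146820191-146820212, plus strand, 39 bases after the start: cgagctcagcTGATGCAAcctg
Nars1, chr18:60275785-60275806, minus strand, 14 bases before the start: ctaggtgatcTGATGCAAcgct
Tars1, chr2:62114812-62114833, plus strand, 27 bases before the start: gctaaccagcTGATGCAAcggg
Mars1, chr7:65023753-65023774, plus strand, 17 bases before the start: gagcccacgcTGATGCAAccgg
Iars1, chr17:15193659-15193680, plus strand, 24 bases before the start: cgtctggaggTGATGCAAtact
Aars1, chr19:55908487-55908508, minus strand, 10 bases after the start: cagagcgctcTGATGAAAagtg

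The core shown reads TGATGCAA for each gene but Aars1, where it reads TGATGAAA. The genes that carry a match did not share a direction: Cars1 and Yars1 rose, Nars1 fell, and Tars1, Mars1, Iars1 and Aars1 did not pass the test. Sars1 rose without a match in its window, whose 250 bases before the start on the minus strand of chr2:198769366-198769615 are given for comparison, with no core to put in capitals.
Sars1: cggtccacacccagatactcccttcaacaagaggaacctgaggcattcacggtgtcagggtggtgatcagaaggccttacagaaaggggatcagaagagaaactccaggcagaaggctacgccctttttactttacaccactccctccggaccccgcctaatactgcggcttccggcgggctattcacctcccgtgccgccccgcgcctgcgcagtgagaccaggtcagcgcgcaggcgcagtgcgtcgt

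Cores of the metal response element, the site of the zinc sensor MTF-1, were searched in the same windows on both strands. TGCACNC was in 12.2% of all promoters, in 3 of 17 cytosolic and in 4 of 16 mitochondrial genes. TGCGCNC was in 14.1% of all promoters and 26.7% of those of tested genes, in 3 of 17 cytosolic genes (Sars1 and 2 that did not pass the test, Tars1 and Eprs1) and in 8 of 16 mitochondrial genes. CCAAT was in 37.5% of all promoters, in 10 of 17 cytosolic and in 6 of 16 mitochondrial genes. A match describes the letters only, and a window without one says nothing of sites elsewhere.

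Mitochondrial synthetases went both ways, and fewer of them were measured well above background. Of 12 tested genes 2 rose (Tars2, Cars2), 2 fell (Pars2, Yars2) and 8 did not pass the test, with a median difference of 0.30 and a range from -1.05 to 1.27. Of the 12, 7 were well above background on all 8 arrays, against 17 of 19 cytosolic genes. The median standard error was 0.22 for the mitochondrial and 0.14 for the cytosolic genes, so that smaller differences could be called among the latter.

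Tars2, the mitochondrial threonyl-tRNA synthetase, read 0.18, 0.64, 0.31 and 0.83 at ZnO 4 and 0.96, 1.44, 1.62 and 1.43 at ZnO 16. The doses did not overlap, and the gene rose by 0.87 (SE 0.19, 1.83-fold, adjusted p = 0.00419). With normexp the difference was 0.06 relative to all genes, or 0.21 as fitted (adjusted p = 0.278 for the fitted value). Cars2, the cysteinyl enzyme, read -1.92, -1.23, -1.98 and -2.10 at ZnO 4 and -1.46, -0.98, -1.21 and -1.27 at ZnO 16. Here ZnO 4 replicate 2 lay among the ZnO 16 values. The difference of 0.58 (SE 0.21, 1.49-fold) barely passed (adjusted p = 0.0491), and it no longer passed when any 1 of 6 arrays was left out (replicates 1, 3 and 4 of ZnO 4, replicates 2, 3 and 4 of ZnO 16), with differences of 0.48 to 0.59 and adjusted p of 0.0707 to 0.121.

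Pars2, the prolyl enzyme, read 0.16, 0.26, 0.11 and 0.48 at ZnO 4 and -0.34, -0.05, -0.22 and -0.67 at ZnO 16. The doses did not overlap, and the gene fell by 0.57 (SE 0.16, a 1.49-fold lower signal, adjusted p = 0.0159). Yars2, the tyrosyl enzyme, read -3.34, -3.37, -3.36 and -3.34 at ZnO 4 and -3.89, -4.55, -4.83 and -4.32 at ZnO 16, where only 1 of the 4 arrays was well above background. It fell by 1.05 (SE 0.26, adjusted p = 0.00997), and by 0.59 when dim signals were raised to the lowest signal well above background (adjusted p = 0.0351). With normexp the Yars2 difference was -0.03 relative to all genes, or 0.11 as fitted (adjusted p = 0.67 for the fitted value). With the median as the scale neither fall was called (Pars2 adjusted p = 0.0665, Yars2 adjusted p = 0.0504). Pars2 was also not called without both replicates 4 (-0.38, adjusted p = 0.0584), nor Yars2 without the filter on dim probes (adjusted p = 0.0574) or without ZnO 16 replicates 2 and 3 (-0.75, adjusted p = 0.0505).

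Hars2, the histidyl enzyme, had the largest mitochondrial difference but did not pass the test. It read -3.86, -3.32, -3.73 and -5.79 at ZnO 4 and -2.12, -3.11, -3.50 and -2.89 at ZnO 16. The difference was 1.27 (95% interval 0.14 to 2.40, adjusted p = 0.069). The lowest value again came from the array of ZnO 4 replicate 4, inside its low-signal area, and with such areas left out the difference was 0.73 (adjusted p = 0.104). With normexp Hars2 was called at a fitted 0.82 (adjusted p = 0.00708), or 0.67 against the median gene. It was also called with dim signals raised (0.91, adjusted p = 0.0413) and without ZnO 4 replicate 2 (1.55, adjusted p = 0.0471).

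The other mitochondrial genes did not pass the test. Sars2 differed by 0.51 (adjusted p = 0.0815), with ZnO 16 replicates 2 and 3 at 0.56 and 0.71 and replicates 1 and 4 at 0.11 and -0.31. It was called without ZnO 16 replicate 4 (0.70, adjusted p = 0.0113), without both replicates 4 (0.78, adjusted p = 0.00637) and with the median as the scale (adjusted p = 0.0113). Ears2 differed by 0.43, Fars2 by 0.38, Nars2 by 0.22, Vars2 by -0.01, Rars2 by -0.29 and Wars2 by -0.47. A further probe each of Ears2, Fars2 and Pars2 was at background on every array. Among the cytosolic genes the further probes of Gars1 (0.37, against 0.15 for the brighter probe), Hars1 (0.12 against 0.36) and Lars1 (0.07 against 0.10) gave no call either.

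Counts and medians of the compartments are set side by side here without a test, because genes are not replicates. The genes were also chosen with earlier results known, though by name. The share higher was 36.8% among cytosolic and 16.7% among mitochondrial genes, and the shares lower were 10.5% and 16.7%. Among all genes 19.8% were higher and 21.9% lower. The median over genes of the deviation from each gene's own mean was -0.12 ± 0.13 (SD, n = 4) at ZnO 4 and 0.09 ± 0.11 at ZnO 16 for the cytosolic genes. For the mitochondrial genes it was -0.07 ± 0.17 and 0.09 ± 0.16. The cytosolic median minus the mitochondrial one was -0.06 ± 0.22 at ZnO 4 and 0.01 ± 0.27 at ZnO 16, a change smaller than the spread between arrays of a dose.

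**Figure D3:**
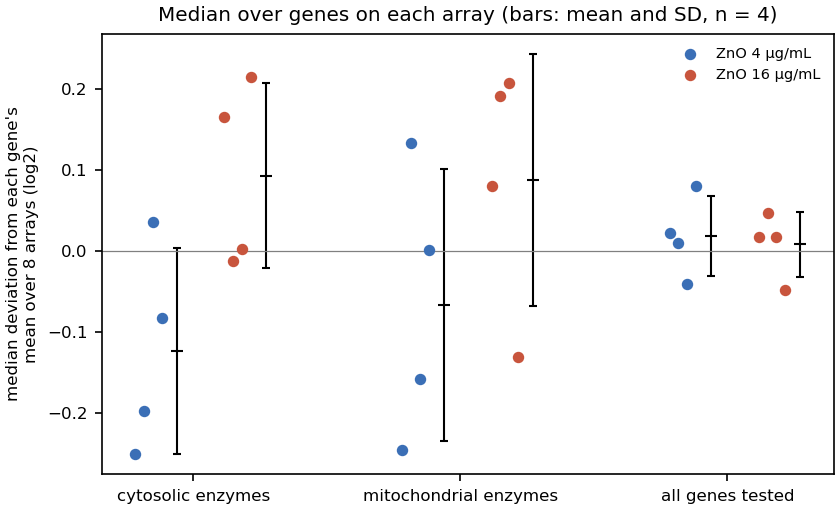
Each dot is an array, and the vertical axis is the median over genes of the log2 deviation from each gene's mean over the 8 arrays, for cytosolic enzymes, mitochondrial enzymes and all genes tested; bars give the mean and SD (n = 4). The doses overlap in each set; the cytosolic means are -0.12 and 0.09, and those of the mitochondrial enzymes -0.07 and 0.09.

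Pairs were formed for 9 amino acids, where the cytosolic and the mitochondrial gene share a name apart from its final 1 or 2 and both were measured. Other enzymes measured in both compartments were not paired. These were the phenylalanyl genes (Farsa 0.81 and Farsb 0.56, Fars2 0.38) and Eprs1 (0.03) with its glutamyl and prolyl counterparts Ears2 (0.43) and Pars2 (-0.57). The cytosolic difference was above the mitochondrial one in 6 of the 9 pairs. The log2 ratio of cytosolic to mitochondrial signal, taken on each array, was higher at ZnO 16 without overlap for 6 pairs and lower without overlap for 1. These counts are a description, since no such share was computed for ratios of other genes. In the tyrosyl pair Yars1 rose and Yars2 fell, and the ratio changed by 1.95. In the asparaginyl pair the order was reversed, with Nars1 falling and Nars2 at 0.22, a change in the ratio of -1.74. Yars2 was well above background on only 1 of the 4 ZnO 16 arrays, and with dim signals raised (Yars2 at -0.59) the tyrosyl change was smaller in size than the asparaginyl one (-1.70). With normexp the changes were 0.74 for the tyrosyl and -0.70 for the asparaginyl pair.

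The cysteinyl pair was called higher in both compartments, Cars1 by more than Cars2, and its ratio changed by 1.33, or by 0.89 with low-signal areas left out and 0.82 with normexp. For the seryl pair the ratio changed by 0.84, for the valyl pair by 0.86, for the tryptophanyl pair by 0.72 and for the arginyl pair by 0.47. The threonyl pair (-0.64) and the histidyl pair (-0.91) leaned towards the mitochondrial gene with overlapping doses. The histidyl change was -0.37 with low-signal areas left out and -0.31 without ZnO 4 replicate 4. With normexp the threonyl change was -0.01, the arginyl one 0.12, the histidyl one -0.54 and the tryptophanyl one -0.05, opposite in sign to the value above. Without ZnO 16 replicates 2 and 3 the threonyl change was -0.25, the arginyl one 0.19 and the tryptophanyl one 1.21. Tars1, whose partner Tars2 rose, read 1.77, 1.71, 2.14 and 1.80 at ZnO 4 and 2.24, 1.81, 1.94 and 2.37 at ZnO 16.

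**Figure D4:**
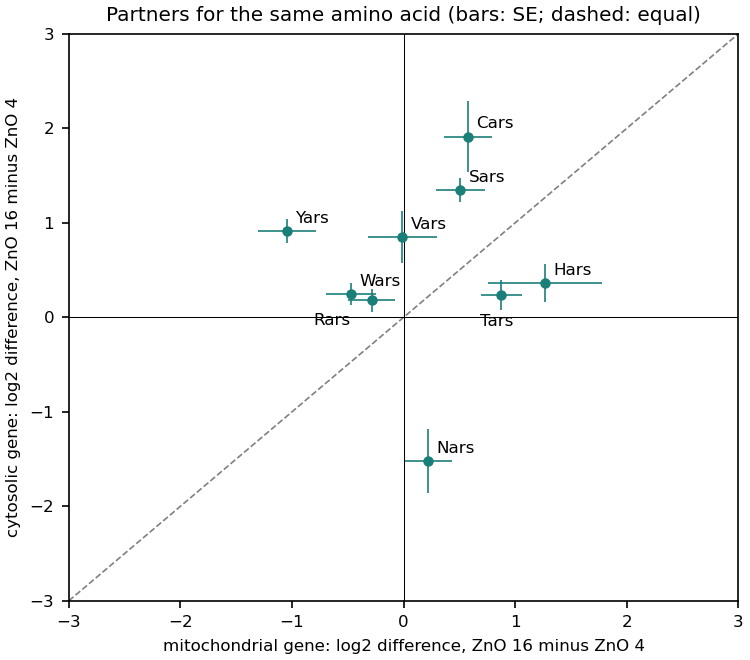
Each point is an amino acid whose genes were paired by name, labelled by its enzymes. The log2 difference (ZnO 16 minus ZnO 4) of the mitochondrial gene is on the horizontal axis and that of the cytosolic gene on the vertical axis. Bars are standard errors and the dashed line marks equal differences. Yars lies far above the line (0.91 against -1.05) and Nars far below it (-1.52 against 0.22).

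Genes outside the 38 that partner the enzymes in charging, or that edit and recycle tRNA, were read as a list. Of 11 tested genes in that list 0 rose and 4 fell, 36.4% called against 41.7% of all genes, with a median of -0.01. Among those that fell, the last pair named after their values were seen, were the kinase of selenocysteine synthesis Pstk (-0.72, adjusted p = 0.0364), the peptidyl-tRNA hydrolase Ptrh2 (-0.67, adjusted p = 0.00332) and the selenocysteine synthase Sepsecs (-0.63, adjusted p = 0.0385). Pstk and Sepsecs each lost their call without any of 5 single arrays (ZnO 4 replicates 1, 2 and 3, ZnO 16 replicates 2 and 3), and Ptrh2 lost it with median scaling.

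Genes that make and modify tRNA went both ways. In the list of tRNA processing and modification 22 of 59 tested genes rose and 10 fell, with a median of 0.26. The share called was 54.2%, against 41.7% of all genes. The largest rises were in Adat3, a subunit of the tRNA adenosine deaminase (2.30, SE 0.25), and Qtrt1, which inserts queuine (1.16, SE 0.20). The largest falls were in Rpp25, an RNase P subunit (-1.61, 2 of 4 ZnO 16 arrays well above background), and the pseudouridine synthase Pus3, which no ZnO 16 array measured above background and which was at least 1.30-fold lower. Both falls lost their call with normexp. For RNA polymerase III and its factors, which transcribe tRNA genes, 6 of 20 rose and 2 fell, 40% called, close to the share of all genes. The rises were led by the polymerase subunits Polr3d (0.66) and Polr3k (0.65). Gtf3c2 differed by -0.62 and Tbp by -0.54, and both falls lost their call with median scaling and with normexp.

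Of 19 translation elongation factor genes, which take charged tRNA onward, 5 rose and 3 fell, with a median of 0.23. The share called was 42.1%, close to the 41.7% of all genes. The largest rises were in the translocase Eef2 (0.83, SE 0.15) and in Eefsec, the selenocysteine elongation factor (0.80, SE 0.18). The falls were led by the mitochondrial factors Gfm2 (-2.13, 1 of 4 ZnO 16 arrays well above background, call lost with normexp) and Gfm1 (-1.67, SE 0.21).

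Most genes listed for GCN2 and ATF4 were higher at ZnO 16. The charging of tRNA was not measured, and whether uncharged tRNA had a part in these differences was not tested. In this list 18 of 26 rose and 2 fell, 76.9% called against 41.7% of all genes, with a median difference of 0.80. Without scaling between arrays 8 were called higher and 4 lower. Ddit3, the stress factor CHOP, had the largest difference (4.82, SE 0.82, or 3.68 with low-signal areas left out), followed by Atf3 (4.79, SE 0.14). Psph, an enzyme of serine synthesis, fell by 1.65, and Eif2ak4, the GCN2 kinase itself, fell by 0.82 (adjusted p = 0.0361) with 2 of 4 ZnO 16 arrays well above background. The Eif2ak4 call was lost in 9 of the alternatives, 5 of them single arrays left out. Named after their values were seen, Atf4 differed by 0.20 (adjusted p = 0.392) and Asns, the asparagine synthetase, by 0.10 (adjusted p = 0.594). These lists describe the same 8 arrays and were chosen with results known, and no test was made of one list against another.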

How the data were processed

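RNA of NR8383 cells was measured on 1-colour Agilent arrays (Cy3), per the labels' protocols, with 4 arrays per dose. Per the submitters' processing notes the scans were read with Agilent Feature Extraction 11.0.1.1. Per the file headers, the deposited processed signal is a linear intensity from which this program had removed background and a spatial trend, array by array. The authors' normalization between arrays is not given in the sources used here. From these values log2 levels were computed and set relative to the 75th percentile of the non-control spots of the same array. Spots flagged as non-uniform or as population outliers were set to missing, and repeated spots of a probe were averaged. A probe was kept if 3 or more of the 4 arrays of either dose had it well above background, and the brightest probe stood for its gene. Such a filter drops weak genes, and among the members with a matched probe it dropped only Aars2. Accessions were matched to a RefSeq gene table of GRCr8 for names; 46.3% of probes and 93.9% of those with a curated mRNA accession (NM) got a symbol.

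Doses were compared with limma 3.58.1 in R 4.3.3 (lmFit, eBayes with an intensity trend, two-sided, Benjamini-Hochberg over all 13464 genes, threshold 0.05). The steps were tested on simulated data. No spot was saturated. The number of arrays limits the precision. P-values measure only the spread between these arrays. Where a probe was below background on every array of a dose, the fold is given as "at least", against the mean over that dose's arrays of the higher of its own value and the array's lowest signal well above background.

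Replicate numbers in the titles were not taken as pairs: deviations of same-numbered arrays correlated at 0.25, 0.40, -0.22 and -0.03. The ZnO 16 array that correlated best had the same number for ZnO 4 replicates 1 and 2 but not for replicates 3 and 4. Whether the cultures were paired is thus not known. The members and gene lists were chosen with earlier results of these data known. Every tested member is named, called members with their value on every array; from each other list the 2 largest called differences in each direction are named, except that some genes and 1 sequence window are not reported here. The alternatives tried were other scalings (median, quantile, none, spike-in), normexp with an offset of 50 on the raw median signals, 2 other filters on dim probes, raised dim signals, the mean of a gene's probes, kept flags, masked low-signal areas, no intensity trend, a replicate block and each array left out. The last 2, chosen after seeing the data, left out both replicates 4 and ZnO 16 replicates 2 and 3. Probe sequences, a genome and protein sequences were not used here.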

Additional observations from a re-analysis of the deposited data

Results flagged for a closer look

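Each gene's 4 values per dose, and the medians over cytosolic and mitochondrial genes per array, were searched for a single array far from the others of its dose, 74 groups of values in all, of which 2 were picked out. By chance alone about 1 in 20 groups would be. In Farsb the array of ZnO 4 replicate 1 was the lowest of its dose at -1.17, with the nearest other at -0.85, so that the gap was 0.84 of the range. In Vars1 the array of ZnO 4 replicate 4 was the highest of its dose at -0.62, with the nearest other at -1.21 and a gap of 0.844 of the range. Without ZnO 4 replicate 1 the Farsb call was lost (0.47, adjusted p = 0.071). Without ZnO 4 replicate 4 the Vars1 difference was 1.03 and its call was kept.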

How the results depend on the processing

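Among 23 alternatives no called member, and none of the called list genes named here, changed direction relative to the median gene. With median, no and spike-in scaling they could not, since these shift all genes of an array alike. All 14 called members kept their call with quantile normalization, with low-signal areas masked, with the mean of all probes and without ZnO 16 replicate 1. Apart from the fits without scaling and with spike-in scaling, 5 to 8 cytosolic genes were called higher and 1 to 3 lower. The median of all genes moved by 0.17 with median scaling, by 0.15 with normexp, by -0.76 without scaling and by -1.08 with spike-in scaling. Member differences in those settings are given relative to that shift unless called fitted. Adjusted p and calls always belong to the fitted values. The cause of the changes below was not tested, beyond the fewer genes or arrays that some alternatives leave.

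Without scaling 230 genes were called higher, with 0 cytosolic, 0 mitochondrial and 0 scaffold genes; among the lists the counts higher and lower were 8 and 4 (amino acid response), 0 higher for RNA polymerase III, 0 and 6 (elongation) and 1 higher for tRNA processing. Spike-in scaling gave 175 higher and 7719 lower, with 0 and 9 cytosolic, 0 and 5 mitochondrial, 0 and 1 scaffold, 7 and 6 amino acid response, 0 and 10 RNA polymerase III, 0 and 9 elongation, 7 charging partner genes lower and 1 and 26 tRNA processing genes. With median scaling 1 cytosolic, 0 mitochondrial, 1 amino acid response and 0 RNA polymerase III genes were lower, and charging partners had 1 higher and 1 lower. With normexp the counts lower were 1 mitochondrial, 1 amino acid response, 1 RNA polymerase III, 2 charging partners and 6 tRNA processing, 2 scaffold genes were higher, and the cytosolic median was 0.055. Keeping genes above background on all 8 arrays left 1 cytosolic, 1 mitochondrial and 1 amino acid response gene lower. Without the filter 1 mitochondrial gene was higher and 1 lower, 1 amino acid response, 1 RNA polymerase III and 2 charging partner genes were lower, and 3 elongation factors were higher. Kept flags, and no intensity trend, each left 1 mitochondrial gene higher.

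Without both replicates 4, 1 mitochondrial and 1 RNA polymerase III gene were lower. Without ZnO 16 replicates 2 and 3, 1 mitochondrial gene and 3 elongation factors were higher, 2 charging partners were lower, the cytosolic median was 0.38 and the cytosolic minus mitochondrial median was 0.23 (main value -0.06). Leaving out single arrays gave 1 to 3 mitochondrial genes higher, 1 to 2 amino acid response genes lower, 3 to 6 elongation factors higher, and 0 to 1 charging partners higher and 2 to 4 lower.

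The replicate block gave 2593 genes higher and 2878 lower; Vars1 (0.85, adjusted p = 0.0514) lost its call and the other called members kept theirs, while Pstk and Sepsecs lost theirs, which left 2 charging partners lower. Since the numbers were not taken as pairs, this fit is given for completeness. Signal over background limits Nars1, Yars2 and Vars2, measured on 1 or 2 of the 4 ZnO 16 arrays, and Aars2, which could not be tested. Iars2, Lars2 and Mars2 were not tested because they had no matched probe.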
